A study of Mus musculus with 108 samples.

Results

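The genes described here are 10 factors that work with or beside the RNA exosome: the helicase gene Mtrex, the cofactor genes C1d, Mphosph6, Zcchc8, Rbm7 and Zfc3h1, the catalytic subunit genes Dis3 and Dis3l, and the 5′ to 3′ exonuclease genes Xrn1 and Xrn2. They were chosen by name, and their rows were found by matching the Ensembl gene IDs of the count files to symbols. All 10 were found among 55573 gene IDs, and all 10 passed the filter on low counts in both library types.

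The study asked how loss of Exosc10, a nuclear catalytic subunit of the exosome, changes the RNA of single mouse oocytes. Its mutant females (cKO) lack Exosc10 in oocytes only, and its other females are controls. In the polyA libraries, made by capture on oligo(dT) beads, there were 15 cKO oocytes of 2 females and 7 control oocytes of 2 females at GV (germinal vesicle, arrested in meiosis), 11 of 3 and 8 of 3 at GV3h (after 3 hours in M2 culture medium), and 15 of 3 and 8 of 3 at MII (eggs from oviducts). In the RiboMinus libraries, made with random hexamers and without selection for poly(A), there were 7 cKO oocytes of 2 females and 8 control oocytes of 2 females at GV, and 4 of 2 and 3 of 1 at MII. The labels give the controls no genotype beyond that word, and the driver of the knockout, the strain and the ages of the females are not given in the sources used here.

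The RNA exosome degrades and trims RNA from the 3′ end. In the nucleus, the helicase encoded by Mtrex unwinds substrates and feeds them to it, as part of TRAMP, of NEXT (with the products of Zcchc8 and Rbm7) and of PAXT (with that of Zfc3h1), while the products of C1d and Mphosph6 tie the helicase and Exosc10 to the core during ribosomal RNA maturation. Dis3 and Dis3l encode the catalytic subunits of the mainly nuclear and the cytoplasmic exosome, and Xrn2 and Xrn1 encode the nuclear and cytoplasmic exonucleases that degrade RNA from the 5′ end. Fully grown oocytes are transcriptionally quiet and live on stored mRNA, so counts from oligo(dT) capture depend on the poly(A) tail of an mRNA as well as on its amount. Tail length was not measured.

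Total gene counts per oocyte were 4638718 to 8735914 in the polyA libraries and 12319658 to 62675760 in the RiboMinus libraries. Exosc10, the targeted gene, was lower in cKO in all 5 genotype comparisons, with log2 changes between −5.34 and −7.49 (edgeR, adjusted p of 0.00101 or less), and no cKO oocyte reached a control value. Levels are given as CPM, with counts scaled to library sizes adjusted by TMM factors, so they are not shares of the library totals. Female and oocyte levels are not on the same scale. At GV3h, for example, Zfc3h1 was at 44.98 CPM in cKO female V983, below the lowest cKO oocyte at 46.71 CPM. All 8 oocyte markers were detected in every group, and they summed to 14763 to 23983.5 CPM per polyA oocyte and 5059 to 12854.5 CPM per RiboMinus oocyte. The 8 cumulus and granulosa markers summed to between 12.96 and 138.7 CPM, Cyp19a1 (median 38.7 CPM in polyA) and Kitl (11.4 CPM) had the highest medians, and Ptx3 was at 0 in 8 of the 10 groups.

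Levels and tests use females as replicates, since oocytes of a female are not independent. Calls from fits with oocytes as replicates are given only to show how the results depend on that choice. Changes are log2 differences ± standard error from edgeR's quasi-likelihood test with all groups of a library type in the fit, and the word called marks an adjusted p (Benjamini-Hochberg, over every gene in the fit) under 0.05. No spike-in row was among the genes analysed, so each change is relative to the other genes of a library, and a change in the total RNA of an oocyte cannot be seen. The number after the letter V in each sample name was taken as the female, and the p-values measure the spread between these females.

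**Figure D1:**
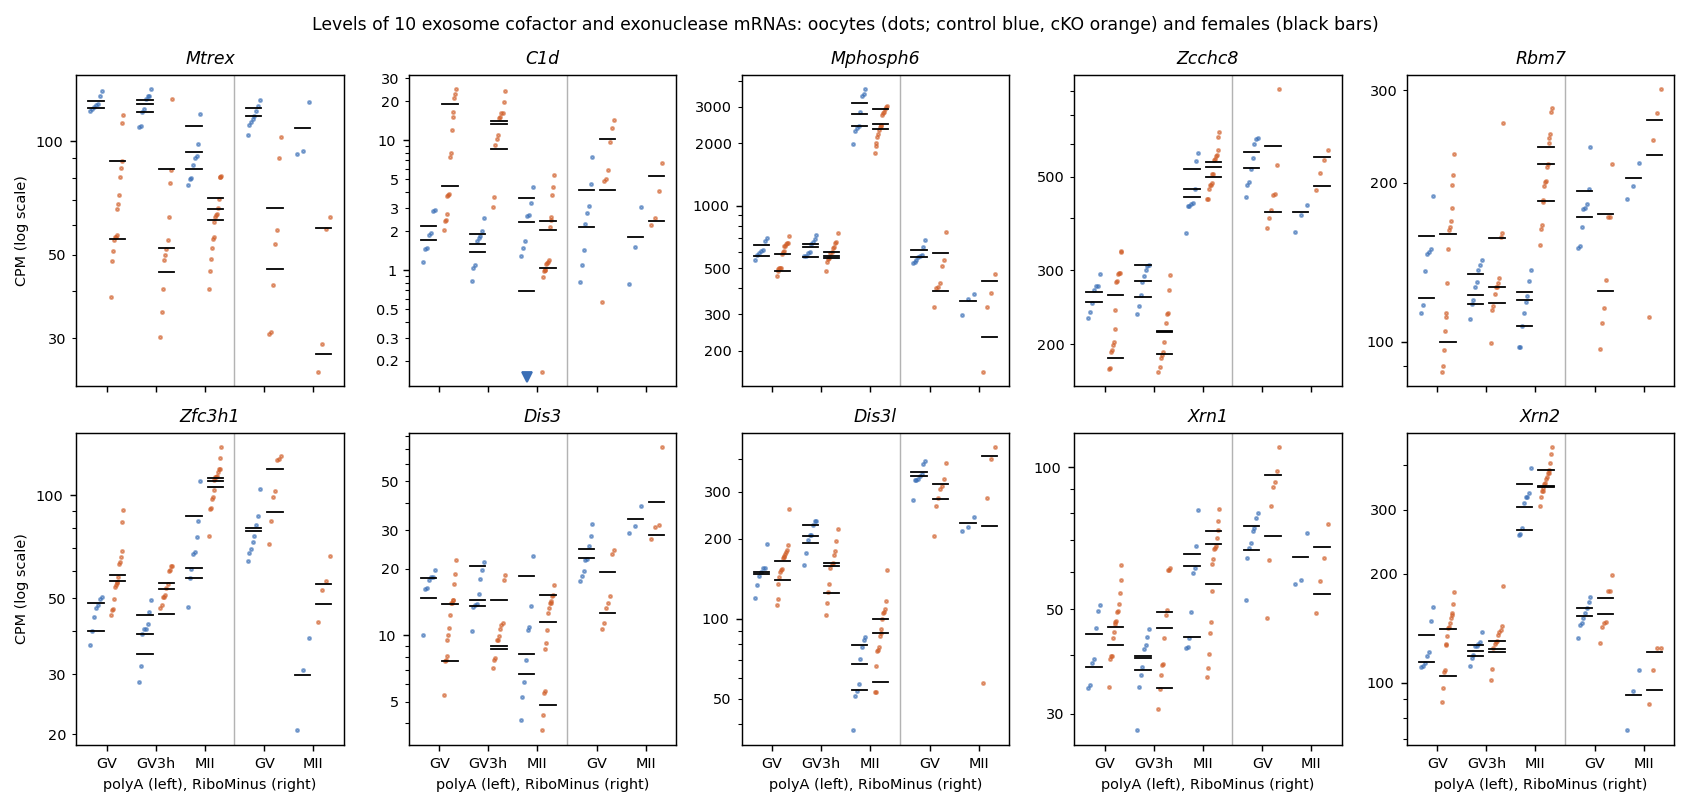
CPM on a log axis for each gene in control (blue) and cKO (orange) oocytes (dots) and females (black bars), by stage, with polyA libraries left and RiboMinus libraries right of the grey line; the triangle marks 1 oocyte with no C1d read. Mtrex lies lower in cKO at every stage, C1d lies higher in cKO at polyA GV and GV3h, and Mphosph6 and Xrn2 lie higher at MII in the polyA libraries of both genotypes.

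Per kilobase of annotated exon, a measure that allows levels to be compared between genes, the control GV oocytes of the RiboMinus libraries ranked Mphosph6 first with a mean of 238.5 CPM per kb, followed by Zcchc8 at 104.5 and Dis3l at 64.2. Xrn2 at 39.4 and Rbm7 at 37.0 CPM per kb overlapped between the 2 females. Mtrex stood at 18.7, Zfc3h1 at 10.1, Xrn1 at 3.81, Dis3 at 3.04 and C1d at 0.782 CPM per kb, and no other neighbours in this order overlapped. On GRCm38 the genes other than Mtrex lie at chr8:117791645-117801943 (Mphosph6, minus strand), chr5:123698294-123721100 (Zcchc8, minus), chr9:64306756-64341288 (Dis3l, minus), chr2:147012996-147078000 (Xrn2, plus), chr9:48488701-48495299 (Rbm7, minus), chr10:115384959-115432772 (Zfc3h1, plus), chr9:95954760-96057803 (Xrn1, plus), chr14:99075206-99099770 (Dis3, minus) and chr11:17257579-17269176 (C1d, plus). The exon length is that of all annotated transcripts joined, which is 18.59 kb for Xrn1 and 2.476 kb for Mphosph6. Part of the order depends on that length. Per kilobase of the annotated principal transcript, an alternative chosen after seeing the data, Rbm7 (103.2 CPM per kb) overlapped Dis3l (98.0007 CPM per kb) and stood above Xrn2 (45.6), and Xrn1 (12.9) stood above Zfc3h1 (11.4), while Mphosph6 and Zcchc8 were again the highest and Dis3 and C1d the lowest.

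Mtrex, the helicase gene, was lower in cKO at GV3h and had negative changes in the other 4 genotype comparisons. At GV, its polyA level was 88.7 and 55.01 CPM in the 2 cKO females and 122.4 and 128.1 CPM in the 2 control females, a log2 change of −0.80 ± 0.26 (1.74-fold lower, adjusted p = 0.0718), and all 15 cKO oocytes (38.6 to 117.4 CPM, median 65.9) lay below the lowest of 7 control oocytes at 120.1 CPM. At GV3h the cKO females were at 52.2, 84.5 and 44.9 CPM and the control females at 128.4, 125.2 and 119.3 CPM, and Mtrex fell by 1.04 ± 0.21 on the log2 scale (2.05-fold lower, adjusted p = 0.0026). At MII the values were 70.8, 65.9 and 61.7 against 93.4, 84.2 and 109.7 CPM, a change of −0.53 ± 0.21 (adjusted p = 0.0918).

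The RiboMinus libraries, from other females, gave Mtrex differences of the same sign. At GV the 2 cKO females had 66.7 and 45.7 CPM and the 2 control females 122.4 and 116.6 CPM (−1.09 ± 0.36, adjusted p = 0.24), and at MII the 2 cKO females had 27.2 and 58.9 CPM and the 1 control female 108.6 CPM (−1.33 ± 0.42, adjusted p = 0.0868). The cKO females lay below the controls without overlap in all 5 comparisons, as did 4.25% of the 19030 genes tested in both library types, and only GV3h passed edgeR's test on females. Other fits called Mtrex lower at polyA GV (DESeq2 adjusted p = 0.0412, voom 0.00161), at RiboMinus GV (voom adjusted p = 0.0188) and at RiboMinus MII (DESeq2 adjusted p = 0.0433, voom 0.00871), as did edgeR without a filter on low counts in these 3 comparisons (adjusted p = 0.0396, 0.00528 and 0.00192). With only the groups compared polyA MII passed too (adjusted p = 0.0493). With oocytes as replicates all 5 passed, but that fit treats oocytes of a female as independent and adds no females. The size rested on single cKO females: the GV change was −1.19 without V857 (adjusted p = 0.0409) and −0.50 without V888 (adjusted p = 0.312), and the RiboMinus MII change was −1.997 without V1167 (adjusted p = 0.0183) and −0.86 without V1166 (adjusted p = 0.129). Oocytes did not overlap at polyA GV, RiboMinus GV and RiboMinus MII, and 10 of 11 cKO oocytes at GV3h and 12 of 15 at polyA MII lay below every control. The cKO oocyte of GV3h within the control range was at 129.7 CPM, where the other 10 were at 83.8 CPM or less.

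The Mtrex gene lies at chr13:112867418-112927398 (GRCm38, minus strand), and 452 bases of its exons (7.06%) overlap exons of Plpp1 on the other strand. The strand setting of the counting is not given in the sources used here, so a share of its reads could belong to Plpp1. In controls the polyA stage changes of Mtrex were −0.01 ± 0.24 from GV to GV3h and −0.39 ± 0.24 from GV to MII, and neither passed the test. With library totals the change from GV to MII was called (−0.81, adjusted p = 0.0131), as it was by voom (adjusted p = 0.0465). Over the 16 polyA females, the genes with the most similar profile among 9286 searched were Ncapg (Pearson r = 0.947, Spearman rho = 0.935), Gm28078 (0.941 and 0.950) and Stx17 (0.932 and 0.921). These females share stages and genotypes, so the likeness is a description.

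Of the NEXT genes, Zcchc8, which encodes the scaffold, fell in cKO at GV3h. Its cKO females had 215.1, 213.6 and 189.3 CPM there and its controls 307.9, 282.4 and 259.3 CPM (−0.46 ± 0.13, adjusted p = 0.0171), with 8 of 11 cKO oocytes below every control. The call was lost without V993 (−0.40, adjusted p = 0.0774), without V951 (−0.40, adjusted p = 0.0793), without a filter on low counts (−0.41, adjusted p = 0.0814) and with scaling to library totals (−0.23, adjusted p = 0.205). The other 4 genotype comparisons of Zcchc8 lay between −0.21 and 0.33 and did not pass the test.

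Rbm7, the RNA-binding partner of Zcchc8 in NEXT, was higher in cKO at MII. The cKO females had 185.2, 234.3 and 217.7 CPM and the controls 120.03, 124.2 and 107.2 CPM, a rise of 0.86 ± 0.18 (1.81-fold, adjusted p = 0.00368), and all 15 cKO eggs (152.7 to 277.3 CPM) lay above all 8 control eggs (97.6 to 136.8 CPM). At GV the Rbm7 females overlapped, with 99.85 and 160.01 CPM in cKO and 121.2 and 158.6 CPM in controls. In the RiboMinus libraries at MII, the 2 cKO females had 226.2 and 263.2 CPM and the control female 204.6 CPM (0.26 ± 0.29, adjusted p = 0.573).

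Zfc3h1, which encodes the PAXT zinc finger protein that links the helicase to the nuclear poly(A) binding protein, was higher in cKO eggs. At MII its cKO females had 110.4, 105.6 and 112.0 CPM and its controls 61.1, 87.1 and 57.4 CPM (0.67 ± 0.17, 1.59-fold, adjusted p = 0.0128), and 9 of 15 cKO eggs lay above every control egg. Without control female V896 the change was 0.56 (adjusted p = 0.0514). In the other comparisons the cKO females also lay above the controls without overlap, as did 3.98% of genes in all 5, with changes of 0.37 ± 0.21 at polyA GV, 0.37 ± 0.17 at GV3h, 0.40 ± 0.24 at RiboMinus GV and 0.79 ± 0.30 at RiboMinus MII. None of those 4 passed edgeR's test on females (adjusted p = 0.302, 0.122, 0.48 and 0.132). Voom called GV3h (0.46, adjusted p = 0.0358) and RiboMinus MII (0.91, adjusted p = 0.0347), and library totals GV3h (0.60, adjusted p = 0.014). The fit with oocytes as replicates, which treats oocytes of a female as independent, called all 4. It alone called polyA GV and RiboMinus GV.

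C1d, whose product binds Exosc10 in the nucleolus, had the lowest level per kilobase of the 10 genes and the largest called rise among them. At GV the cKO females were at 18.9 and 4.43 CPM and the control females at 2.20 and 1.69 CPM (2.58 ± 0.69, 5.98-fold, adjusted p = 0.0341), and 11 of 15 cKO oocytes lay above all 7 controls, so the groups overlapped. At GV3h the cKO females were at 13.4, 8.51 and 14.0 CPM and the controls at 1.37, 1.88 and 1.58 CPM (2.89 ± 0.58, 7.41-fold, adjusted p = 0.00221), and all 11 cKO oocytes lay above all 8 controls. These levels rest on 4 to 17 reads per control oocyte and 17 to 182 reads per cKO oocyte.

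The C1d call at GV was lost with any of 3 females left out: without V857, at 18.9 CPM, the change was 1.19 (adjusted p = 0.377), and without control female V856 or V889 it was 2.78 or 2.41 (adjusted p = 0.143 and 0.261). At MII C1d overlapped between genotypes, with 2.40, 1.05 and 2.04 CPM in cKO females and 0.693, 2.33 and 3.57 CPM in controls (−0.26 ± 0.56, adjusted p = 0.785). In the RiboMinus libraries the cKO females had 4.13 and 10.15 CPM at GV, beside 2.13 and 4.11 CPM in controls, and 2.41 and 5.27 CPM at MII, beside 1.79 CPM. The changes were 1.19 ± 0.63 at GV and 1.10 ± 0.81 at MII (adjusted p = 0.426 and 0.398), or 0.40 without V1131 and 0.43 without V1167.

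Mphosph6, the other nucleolar cofactor gene, did not pass the test in any genotype comparison, with changes between −0.27 and −0.06. At GV3h, for example, its cKO females had 571.6, 594.9 and 560.5 CPM and its controls 635.2, 564.96 and 656.6 CPM. Of the catalytic genes, Dis3 lay between −0.62 and 0.03 and Dis3l between −0.49 and 0.46, none called. Dis3 was at 7.67 and 13.8 CPM in cKO females and 14.8 and 18.3 CPM in controls at polyA GV (−0.62 ± 0.52, adjusted p = 0.514). The lowest adjusted p among them was Dis3l at GV3h, with 161.9, 158.5 and 124.96 CPM in cKO females and 205.06, 226.0 and 192.5 CPM in controls (−0.49 ± 0.19, adjusted p = 0.07). It was called there with only the groups compared (−0.47, adjusted p = 0.0186), by voom (−0.42, adjusted p = 0.0475) and on oocytes (−0.39, adjusted p = 0.0301), and on oocytes at polyA MII with the opposite sign (0.49, adjusted p = 0.0055). Xrn1 lay between −0.08 and 0.25 and Xrn2 between −0.03 and 0.23, also with no call, though on oocytes Xrn2 was called at polyA MII (0.25, adjusted p = 0.0287). At GV3h Xrn2 was at 121.5, 130.3 and 123.5 CPM in cKO females and 118.6, 122.01 and 126.9 CPM in controls. The standard errors were 0.14 to 0.27 for Xrn2 and 0.32 to 0.52 for Dis3, which had group medians of 57.5 to 124 reads per polyA oocyte. Dis3 and Xrn1 also share exon bases with genes on the other strand (325 with Pibf1, and 604 with C78334 and 184 with Gm16794).

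**Figure D2:**
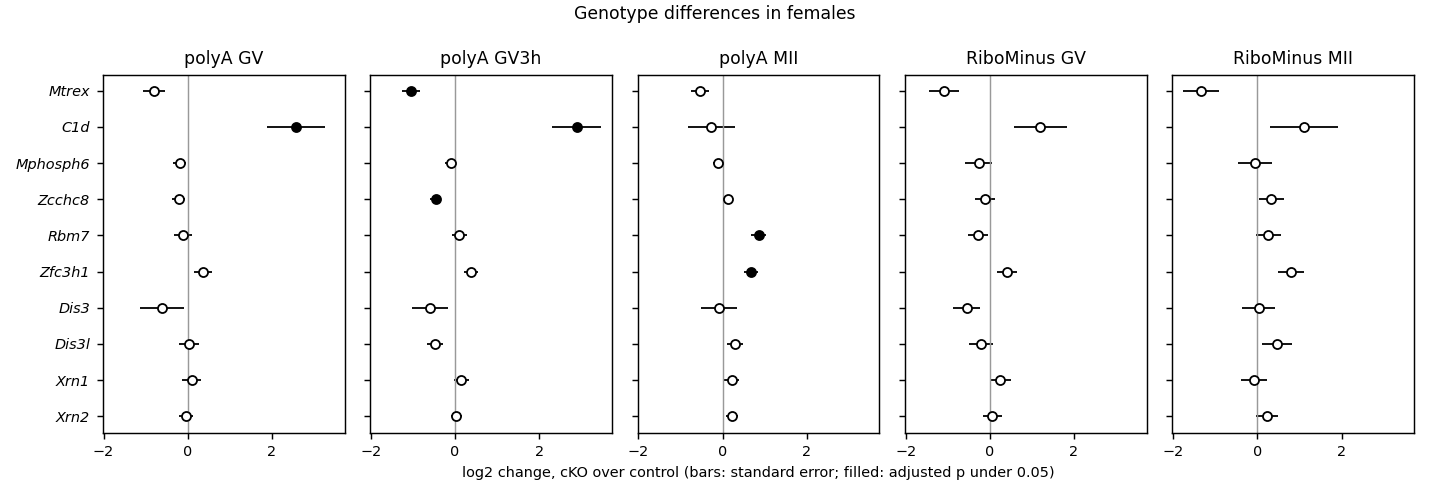
Log2 change of cKO over control for each gene in the 5 genotype comparisons, with standard errors as bars; filled points have an adjusted p under 0.05. Mtrex lies left of 0 in all 5 panels, from −0.53 to −1.33, and C1d is the gene farthest to the right at polyA GV and GV3h.

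At polyA GV, 1 of the 10 genes was called higher (3.47% of all genes) and 0 lower (3.91%), together beside 7.38%. At GV3h 1 was called higher (12.5%) and 2 lower (12.7%), together beside 25.2%, and at polyA MII 2 were called higher (11.9%) and 0 lower (6.99%), together beside 18.9%. These counts are near the shares of all genes. In the RiboMinus libraries 0 were called by edgeR at GV, where 0.0275% of all genes were called higher and 0.00393% lower (0.0315% together), and 0 at MII, where 3.61% were called higher and 3.69% lower (7.3% together). Among the members, 1 and 2 had an unadjusted p under 0.05 there, beside 14.7% and 27.4% of all genes, and DESeq2 called 0 and 1, beside 9.04% and 24.9%. With library totals as the scale, higher genes made up 74.2% of the calls at polyA GV (46.97% by TMM), 70.5% at GV3h (49.5%) and 65.9% at RiboMinus MII (49.5%). The members called at GV3h were then 2 higher and 1 lower, with Zfc3h1 gained (0.60, adjusted p = 0.014) and Zcchc8 lost, and those at polyA GV and polyA MII were 1 and 2 higher and 0 lower.

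Females did not overlap between genotypes for 2 members lower and 2 higher at polyA GV (23.8% and 28.2% of all genes), and for 3 lower and 2 higher at GV3h (24.3% and 27.1%). The counts were 1 lower and 2 higher at polyA MII (13.6% and 19.3%), 3 lower and 2 higher at RiboMinus GV (26.2% and 30.4%), and 1 lower and 5 higher at RiboMinus MII (34.4% and 37.2%). The median member change was −0.07, −0.04 and 0.17 in the polyA comparisons, beside 0.08, 0.07 and 0.12 for all genes. In the RiboMinus comparisons it was −0.17 and 0.24, beside 0.04 and 0.25.

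The spread between oocytes was described by the coefficient of variation of CPM over the oocytes of a group. For Mtrex in polyA libraries it was 32.7% (GV), 46.7% (GV3h) and 20.4% (MII) in cKO, beside 4.49%, 8.57% and 14.9% in controls. In RiboMinus libraries it was 48.2% (GV) and 45.2% (MII) in cKO, beside 6.75% and 18.9%. It was larger in cKO for 9 of the 10 members at polyA GV, GV3h and RiboMinus GV, beside 65.7%, 64.9% and 53.8% of all genes, for 4 members at polyA MII, beside 35.5%, and for 7 at RiboMinus MII, beside 52.2%. These values were not tested, and they include the differences between females where a group has more than 1. At RiboMinus MII the controls are 1 female, while the 2 cKO females differed in Mtrex, with 29.0 and 24.4 CPM in the eggs of V1166 and 62.8 and 58.4 CPM in those of V1167.

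From GV to MII, 4 members were called higher in the polyA libraries of controls: Mphosph6, Xrn2, Zcchc8 and Zfc3h1. Mphosph6 went from 571.8 and 647.2 CPM in the 2 GV control females to 2772, 3140 and 2421 CPM in the 3 MII control females (2.19 ± 0.15, 4.56-fold, adjusted p = 1.75e-08). In cKO it went from 486.4 and 586.4 to 2352, 2916 and 2466 CPM (2.26 ± 0.15, 4.81-fold, adjusted p = 2.71e-08). All MII eggs lay above all GV oocytes in both genotypes. Genes with a profile like that of Mphosph6 over the 16 polyA females were Ccndbp1 (r = 0.996, rho = 0.853), Ergic2 (0.995 and 0.915) and Slbp (0.994 and 0.959). These females too share stages, so this is a description.

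Xrn2, the nuclear 5′ to 3′ exonuclease gene, went from 114.2 and 135.4 to 263.98, 353.7 and 305.8 CPM in control females (1.30 ± 0.16, 2.47-fold, adjusted p = 6.12e-06). In cKO it went from 104.3 and 140.2 to 346.7, 350.2 and 385.5 CPM (1.56 ± 0.16, adjusted p = 1.29e-06). Zcchc8 went from 252.01 and 266.7 to 523.1, 447.96 and 466.7 CPM (0.89 ± 0.15, adjusted p = 0.00015) and rose by 1.23 ± 0.15 in cKO (adjusted p = 7.34e-06). Zfc3h1 rose by 0.63 ± 0.19 in controls (adjusted p = 0.0154) and 0.94 ± 0.19 in cKO (adjusted p = 0.000984). For Xrn2 and Zcchc8 the eggs and GV oocytes did not overlap in either genotype, while 1 control egg and 1 cKO egg of Zfc3h1 fell within the GV range. Scaled to library totals, the Zfc3h1 changes were 0.19 (adjusted p = 0.415) and 0.41 (adjusted p = 0.0713), and the control call was lost with only the groups compared (0.63, adjusted p = 0.056). The control change was 0.48 without V856 (adjusted p = 0.177) and 0.42 without V853 (adjusted p = 0.0788).

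Dis3l, the cytoplasmic exosome's catalytic gene, went the other way. Its control females had 150.5 and 147.1 CPM at GV and 53.9, 67.3 and 79.5 CPM at MII, so it fell by 1.15 ± 0.21 (2.22-fold lower, adjusted p = 0.000293), and all 8 control eggs lay below all control GV oocytes. In cKO it went from 139.4 and 165.4 CPM to 88.5, 57.9 and 99.9 CPM (−0.89 ± 0.21, adjusted p = 0.0024), with 13 of 15 eggs below every GV oocyte. Dis3 did not pass the test (−0.57 ± 0.48 in controls and −0.03 ± 0.48 in cKO), though voom called it lower in controls (−0.85, adjusted p = 0.0337), as did the fit on oocytes (−0.72, adjusted p = 0.0293).

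C1d, Rbm7 and Xrn1 were called from GV to MII in cKO and not in controls, and the difference between the genotypes did not pass edgeR's test on females in any of them. C1d fell by 2.66 ± 0.60 in cKO (adjusted p = 0.00193) and had 0.18 ± 0.62 in controls, and the interaction of stage and genotype was −2.84 ± 0.88 (adjusted p = 0.114), or −3.54 without V888 (adjusted p = 0.0177) and −3.25 without V836 (adjusted p = 0.0467), and −1.45 without V857 (adjusted p = 0.57). DESeq2 called this interaction (−2.89, adjusted p = 0.0188), as did edgeR without a filter (−2.88, adjusted p = 0.011) and with oocytes as replicates (−2.497, adjusted p = 0.00502). Rbm7 rose by 0.71 ± 0.20 in cKO (adjusted p = 0.00832) and had −0.26 ± 0.19 in controls, with an interaction of 0.97 ± 0.28 (adjusted p = 0.0868), or 1.35 without V888 (adjusted p = 0.00975), and voom called it (0.94, adjusted p = 0.0247), as did the fit on oocytes (0.84, adjusted p = 0.00191). Xrn1 rose by 0.59 ± 0.21 in cKO (adjusted p = 0.0304) beside 0.47 ± 0.21 in controls (adjusted p = 0.0821, or 0.0213 without V836, 0.0319 by DESeq2, 0.0479 with its size factors and 0.0261 on oocytes), and the Xrn1 interaction was 0.12 ± 0.29 (adjusted p = 0.893). Without female V857 the cKO changes were −1.27 for C1d (adjusted p = 0.131), 0.40 for Rbm7 (adjusted p = 0.158, against 1.08 without V888) and 0.53 for Xrn1 (adjusted p = 0.152), and none was called. The Xrn1 call was also lost, with a change of similar size, without V888, V841 or V842 (0.65, 0.57 and 0.51, adjusted p = 0.0701, 0.0682 and 0.0882), without a filter on low counts (0.59, adjusted p = 0.0841) and with only the groups compared (0.60, adjusted p = 0.0714). That of Rbm7 was lost with only the groups compared (0.70, adjusted p = 0.0568). With library totals the cKO changes were 0.18 for Rbm7 (adjusted p = 0.454) and 0.08 for Xrn1 (adjusted p = 0.795), and Rbm7 was called lower in controls (−0.69, adjusted p = 0.0082).

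In all, 5 of 10 members were called from GV to MII in controls (4 higher, 1 lower), beside 42.5% of all genes (16.8% higher, 25.7% lower). In cKO 8 were called (6 higher, 2 lower), beside 44.7% (18.1% higher, 26.6% lower). The median member change was 0.33 and 0.65, beside −0.26 and −0.33 for all genes. Scaling to library totals moved the median of all genes by −0.43 and −0.52, and the share of calls that were higher from 39.5% to 21.4% and from 40.5% to 20.04%. The members called with library totals were 3 higher and 3 lower in controls, beside 9.3% and 34.3% of all genes, and 3 higher and 3 lower in cKO, beside 9.75% and 38.9%, so the excess of rises over falls among them depends on the scaling. Females did not overlap for 4 members higher and 2 lower in controls (24.2% and 36% of all genes) and for 6 higher and 2 lower in cKO (24.7% and 36.4%). The summed cumulus and granulosa markers had a median of 46.2 CPM in control polyA oocytes at GV and 108.9 CPM at MII (37.5 and 94.5 CPM in cKO), and their part in the stage results was not tested. From GV to GV3h no member was called in controls or cKO, where edgeR called 0% of all genes (425 and 373 genes had an unadjusted p under 0.05, and DESeq2 called 16 and 12). No interaction of stage and genotype was called for a member (0%, 1.94% and 0% of all genes for polyA GV3h, polyA MII and RiboMinus MII, with 0.353% lower and 1.59% higher at polyA MII). At an unadjusted p under 0.05 there were 0, 2 and 0 members, beside 1.6%, 16% and 14.2% of all genes, and DESeq2 called 0, 1 and 0, beside 0%, 6.3% and 6.43%.

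The RiboMinus libraries did not show these rises. In control females Mphosph6 was at 614.1 and 567.2 CPM at GV and 346.6 CPM at MII (−0.77 ± 0.41, adjusted p = 0.42), and Xrn2 at 152.8 and 160.6 CPM and then 92.6 CPM (−0.76 ± 0.28, adjusted p = 0.251). Zfc3h1 was at 78.7 and 80.2 CPM and then 29.7 CPM (−1.42 ± 0.31, adjusted p = 0.118). Zcchc8 had −0.41 ± 0.29. For each of these 4 genes all 3 control eggs lay below all 8 control GV oocytes, opposite in sign to the polyA values. These eggs came from 1 female, and their Dis3l values also lay below every control GV oocyte. The share of all genes with such oocyte values was not counted.

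In cKO the RiboMinus changes were −0.56 ± 0.32 for Mphosph6, −0.58 ± 0.22 for Xrn2, 0.04 ± 0.24 for Zcchc8 and −1.02 ± 0.24 for Zfc3h1 (adjusted p = 0.0646 for the last, or 0.0422 without V1126). No RiboMinus stage change of a member passed edgeR's test on females with all groups in the fit, where 0.00787% of all genes were called in controls and 2.32% in cKO (0.61% higher and 1.71% lower), and 2 and 4 members had an unadjusted p under 0.05, beside 15.1% and 20.3%. DESeq2 called 1 and 3 members, beside 8.69% and 13.3% of all genes, among them Zfc3h1 in both (adjusted p = 0.00316 and 0.0103) and Dis3 in cKO (adjusted p = 0.0107). Dis3 was at 19.5 and 12.6 CPM in the 2 cKO females at GV and 40.04 and 28.6 CPM at MII (1.10 ± 0.32, edgeR adjusted p = 0.11), and all 4 cKO eggs lay above all 7 cKO GV oocytes. Of all genes called higher in polyA in controls, 65.4% had a RiboMinus change under 0, so a negative sign is usual among such genes. That share counts the sign only, and the median RiboMinus change of all genes in controls was −0.16. Females did not overlap for 8 members lower and 2 higher in controls, where 1 female stands for MII (42.3% and 35% of all genes), and for 3 lower and 2 higher in cKO (26.7% and 21.5%). The library types came from different females and were fitted separately, and the difference between them was not tested.

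**Figure D3:**
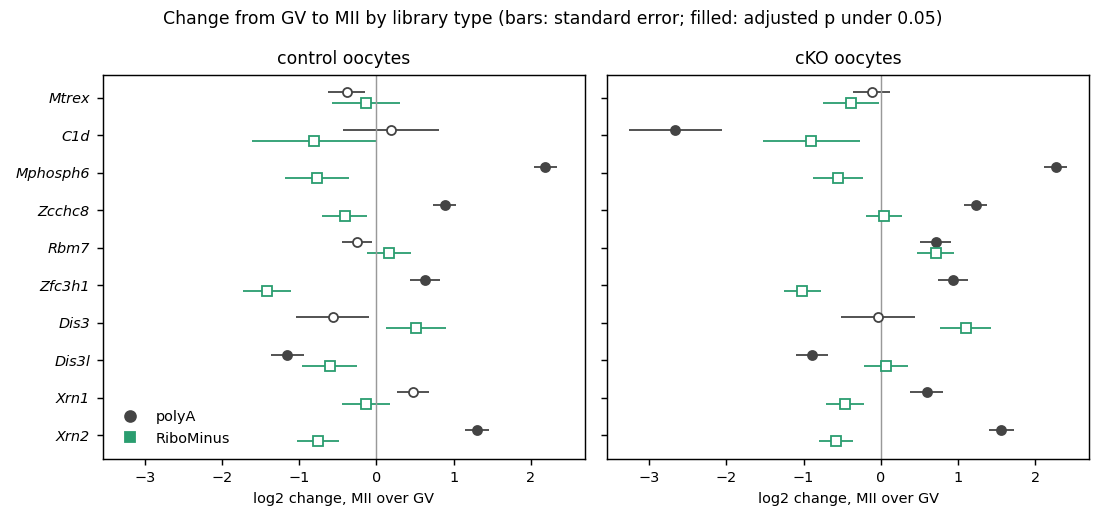
Log2 change from GV to MII in polyA (grey circles) and RiboMinus (green squares) libraries, in control (left) and cKO (right) oocytes, with standard errors as bars; filled points have an adjusted p under 0.05. Mphosph6 and Xrn2 lie right of 0 in polyA and left of 0 in RiboMinus libraries in both panels, and no RiboMinus point is filled.

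The 3′ ends are shown because oligo(dT) binds the tail that follows them. Each line gives the last 30 bases of the annotated principal transcript of a member called from GV to MII in both genotypes (GENCODE M21, GRCm38, sense strand, 5′ to 3′), with the poly(A) signal AATAAA or ATTAAA in capitals.
Mphosph6: attAATAAActtatacttttctgttttctt
Xrn2: aaaAATAAAAATAAAgctaaactttaaaaa
Zcchc8: tgtaAATAAAttcagatctcttaactctgt
Zfc3h1: ttatAATAAAgtttaacagtttaaagaaca
Dis3l: actgttgggATTAAAgatatatgccaccac
The 4 genes that rose have AATAAA in this window and Dis3l has ATTAAA. They lie at chr8:117791645-117791674 (minus strand), chr2:147077971-147078000 (plus), chr5:123698294-123698323 (minus), chr10:115432743-115432772 (plus) and chr9:64306756-64306785 (minus). One of these signals was present for 8 of the 10 members and for 66.86% of 14561 transcripts, so its presence is usual. The letters TTTTAT or TTTTAAT, the core of the cytoplasmic polyadenylation element, were found in the last 100 bases of 2 members, Rbm7 and Zfc3h1, and of 18.42% of transcripts. Whether oocytes use these annotated ends was not tested.

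Partner genes of the same pathways were described from lists of 47 genes, Exosc10 among them: the exosome core, TRAMP, cap binding and PAXT, SKI, decapping, Xrn2 partners and other exonucleases. Higher calls numbered 4, 12 and 4 of 47 in the polyA genotype comparisons (GV, GV3h, MII), and lower calls 4, 9 and 4, beside 3.47%, 12.5% and 11.9% of all genes called higher and 3.91%, 12.7% and 6.99% called lower. The RiboMinus comparisons gave 0 higher and 1 lower call before maturation (GV), and 5 and 3 in eggs (MII), beside 0.0315% and 7.3% of all genes called in either direction. The lower counts include Exosc10, the targeted gene, in all 5 comparisons, and at RiboMinus GV it was the only call. The median change of the 47 genes was 0.03, 0.12, −0.02, −0.02 and −0.01.

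Among partners of the nuclear helicase, Ncbp1, which encodes the large cap binding subunit, was at 12.9 and 28.4 CPM in cKO and 4.36 and 5.19 CPM in control females at GV (2.11 ± 0.53, adjusted p = 0.0274) and rose by 2.67 ± 0.45 at GV3h and 4.03 ± 0.79 at RiboMinus MII (adjusted p = 0.000711 and 0.0265). At RiboMinus MII the 2 cKO females had 9.73 and 21.1 CPM and the 1 control female 0.945 CPM, a low level. Ncbp1 did not pass at polyA MII (0.63 ± 0.46, adjusted p = 0.356) or RiboMinus GV (2.04 ± 0.52, adjusted p = 0.153). Srrt, which encodes ARS2, the link from the cap to NEXT and PAXT, rose by 1.35 ± 0.24 at polyA GV and 1.26 ± 0.20 at GV3h (adjusted p = 0.00578 and 0.000404), and its other 3 values (0.33 to 0.87) did not pass. Rbm26, a PAXT-linked gene, was lower at polyA GV, GV3h and MII, with changes of −0.61 ± 0.18, −0.73 ± 0.15 and −0.48 ± 0.15 (adjusted p = 0.04997, 0.00228 and 0.0319), and its RiboMinus values of −0.54 and −0.76 did not pass. Of the 3 TRAMP genes, named here after their values were seen, Tent4b was lower at GV3h (−0.51, adjusted p = 0.0275) and Zcchc7 higher at polyA MII (0.88, adjusted p = 0.0147).

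Among partners of the 5′ to 3′ exonucleases, Dcp2, the decapping enzyme gene that acts ahead of Xrn1, was at 97.9 and 109.5 CPM in cKO and 170.4 and 197.2 CPM in control females at polyA GV (−0.83 ± 0.17, adjusted p = 0.0127). It was also lower at GV3h (−0.96 ± 0.14, adjusted p = 0.000307) and at RiboMinus MII (−1.87 ± 0.28, adjusted p = 0.0144), and did not pass at polyA MII (−0.31 ± 0.14, adjusted p = 0.139) or RiboMinus GV (−0.82 ± 0.24, adjusted p = 0.192). Lsm1, of the ring that binds shortened tails, rose by 1.74 ± 0.37 and 2.36 ± 0.31 at polyA GV and GV3h (adjusted p = 0.0124 and 0.000128) and had −0.11 ± 0.29 at polyA MII, 1.54 ± 0.40 at RiboMinus GV and 0.22 ± 0.49 at RiboMinus MII, which did not pass. Cdkn2aipnl, which encodes a protein with the Xrn2-binding domain, rose by 0.70 ± 0.20, 0.50 ± 0.17 and 0.79 ± 0.17 in the polyA comparisons (adjusted p = 0.0484, 0.0379 and 0.00444). In the RiboMinus libraries it had the opposite sign at GV, with 57.3 and 71.8 CPM in cKO and 90.6 and 94.9 CPM in control females (−0.52 ± 0.28, adjusted p = 0.432), and 0.41 ± 0.35 at MII. Its relative Cdkn2aip rose by 0.58 ± 0.19 at GV3h, 0.71 ± 0.19 at polyA MII and 1.68 ± 0.29 at RiboMinus MII (adjusted p = 0.0346, 0.0164 and 0.0192), and did not pass at polyA GV (0.45 ± 0.23, adjusted p = 0.248, females overlapping) or RiboMinus GV (0.36 ± 0.22, adjusted p = 0.482). The RiboMinus MII values of Dcp2, Lsm1, Cdkn2aipnl and Cdkn2aip rest on 1 control female. Xrn1 and Xrn2 themselves were not called in any genotype comparison by edgeR on females.

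**Figure D4:**
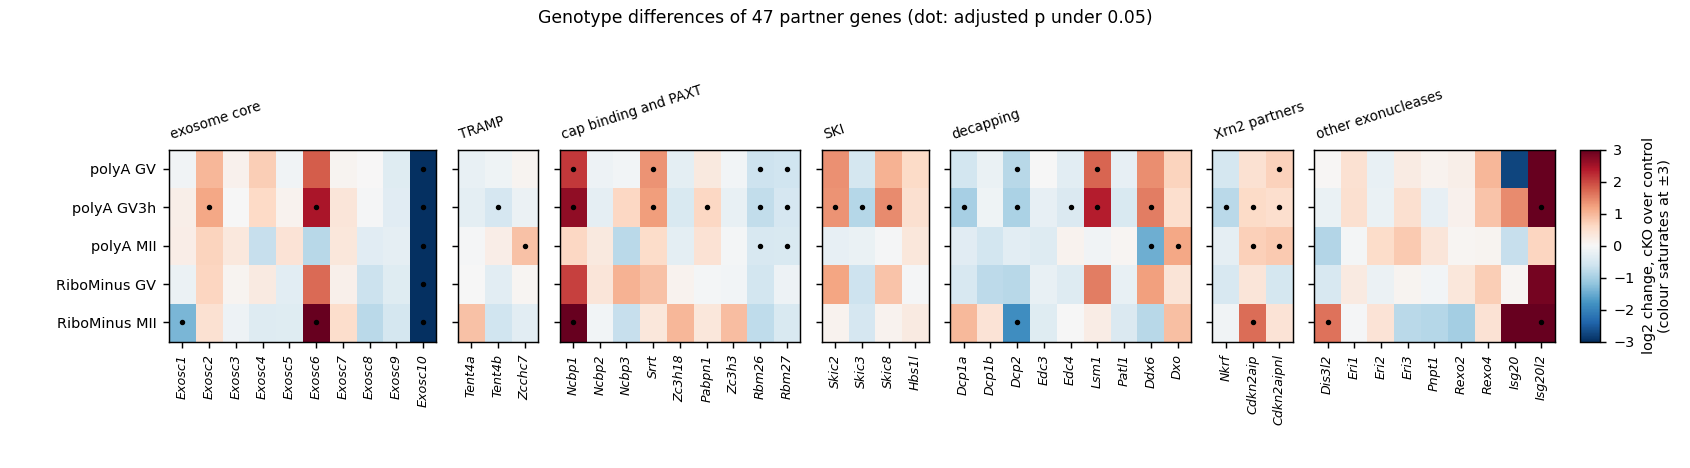
Log2 change of cKO over control (colour, saturating at ±3) for 47 partner genes in 7 lists, by comparison (rows); dots mark an adjusted p under 0.05. Exosc10, the targeted gene, is at the blue end in all 5 rows and is counted among the calls. Dots are most frequent at GV3h, where 21 genes were called. That comparison also had the highest share of calls over all genes (25.2%).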

How the data were processed

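PolyA and RiboMinus gene counts of single oocytes were used; the 22 rRNA files were not analysed here. The deposited files hold raw counts per Ensembl gene ID. Per the submitters' processing notes, the tools included cutadapt 2.5, STAR 2.7.2a, SAMtools 1.9, HTSeq 0.9.1 and DESeq2 1.24.0, with build mm10; their roles, the annotation release and strand setting are not given in the sources used here. Reads outside genes (5.855 to 14.17%, polyA; 8.338 to 12.4%, RiboMinus) were left out. Symbols matched 55394 of 55573 IDs, and coordinates are from GENCODE M21 (GRCm38).

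Counts were summed per female, filtered (filterByExpr), TMM-scaled and tested two-sided with edgeR 4.0.16 in R 4.3.3, with 19242 genes and 16 females (polyA) or 25425 genes and 7 females (RiboMinus). Of 14 comparisons, those with RiboMinus MII controls rest on 1 female, assumed to vary like the others. The code was tested on simulated data. Oocytes of a female differed by more than sampling noise, so none was counted as a duplicate. Alternatives were oocytes as replicates, only the groups compared, the DESeq2 1.42.0 Wald test, DESeq2 size factors, library totals, no filter on low counts, voom (limma 3.58.1) on oocytes with a random effect of female, and leaving out each female or RiboMinus MII control oocyte.

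The members and the lists were chosen with earlier results of these data known. All 10 members are named. Named partners were up to 3 per list, taken by largest mean absolute change. Each was called in the same direction in at least 2 polyA genotype comparisons. Rbm27 also met the rule but came after the 3 named in its list. It was lower at polyA GV, GV3h and MII (−0.60, −0.50 and −0.46, edgeR adjusted p = 0.0307, 0.0105 and 0.0206). Tent4b and Zcchc7 were named outside this rule after their values were seen. Similar genes were the 3 with the highest r for Mtrex and for the member with the largest control stage change.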

Additional observations from a re-analysis of the deposited data

Results flagged for a closer look

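Within 60 combinations of member and group with 4 to 10 oocytes, 3 held an oocyte far from the others by Dixon's criterion, which chance alone meets in about 1 in 20 groups. Zcchc8 was at 810.4 CPM in cKO oocyte 3 of female V1126 in the RiboMinus GV libraries, where the next of 7 was at 532.9 CPM. Dis3 was at 10.02 CPM in control oocyte 1 of female V856 at polyA GV, where the next of 7 was at 16.17 CPM. Dis3 was at 71.28 CPM in cKO egg 2 of female V1166 in the RiboMinus MII libraries, where the next of 4 was at 31.57 CPM.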

How the results depend on the processing

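Of 140 member values, 19 were called. No called value changed sign under any alternative, and sign changes of values called in neither fit are not counted. All 19 calls were kept by DESeq2, DESeq2 size factors, oocytes as replicates and voom, 17 without a filter on low counts, 15 with only the groups compared and 14 with library totals. Called members went, with oocytes as replicates, from 1 to 3 at polyA GV, 3 to 5 at GV3h, 2 to 5 at polyA MII, 0 to 2 at RiboMinus GV and at RiboMinus MII, 5 to 8 from GV to MII in polyA controls, 0 to 3 and 0 to 4 in RiboMinus controls and cKO, and 0 to 2 in the polyA MII interaction. The shares of all genes called with oocytes as replicates were, in that order, 35.8%, 44%, 40.1%, 25.8%, 34.6%, 59%, 19.4%, 22.4% and 16.9%. In the order polyA GV, RiboMinus MII, RiboMinus stage in controls, RiboMinus stage in cKO and polyA MII interaction, DESeq2 gave 2, 1, 1, 3 and 1 (14.6%, 24.9%, 8.69%, 13.3% and 6.3% of all genes), no filter 2, 1, 1, 2 and 1 (5.94%, 11.9%, 3.09%, 7.52% and 2.94%), and voom 2, 2, 2, 3 and 1 (20.1%, 24.8%, 7%, 19.9% and 4.82%). Voom gave 5 at GV3h (33.4%), and voom and no filter gave 1 each at RiboMinus GV (8.32% and 4.74%). With only the groups compared there were 0 at polyA GV (0.00555%) and 5 in the RiboMinus stage comparison of controls (27.9%). Leaving out 1 female gave 0 to 1 at polyA GV, 1 to 2 at polyA MII (1 without V896), 0 to 1 at RiboMinus MII (1 without V1167), 5 to 8 for the polyA stage comparison in cKO (5 without V857), 0 to 1 for the RiboMinus stage comparison in cKO (1 without V1126) and 0 to 2 for the polyA MII interaction.

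Counts over all genes moved more. At polyA GV 1420 genes were called, beside 5798 with oocytes, 1 with only the groups compared, 2751 with DESeq2, 2261 without a filter, 3265 with voom and 110 to 1825 with a female left out. At RiboMinus GV 8 were called, beside 4922, 3, 1666, 1760 and 1590, 5 with library totals, and 2 to 1184. At RiboMinus MII 1857 were called, beside 6620 with oocytes, 5489 with DESeq2, 4421 without a filter, 4736 with voom and up to 3746 with a sample left out. Oocytes gave 6500 at polyA MII, where 3644 were called, and GV3h went from 4849 to a lowest of 2976 with a female left out. From GV to MII in RiboMinus controls 2 were called, beside 3715, 5732, 1663, 1148 and 1338, 0 with library totals, and 0 to 21. In RiboMinus cKO 591 were called, beside 4284, 0, 3022, 2794 and 3795, 327 with library totals, and 6 to 1879. For the polyA MII interaction 373 were called, beside 2742, 13, 1094, 1118 and 781, and 61 to 1251. The RiboMinus interaction went from 0 to 2837 with oocytes, 1278 with DESeq2, 1072 without a filter and 833 with voom, and the comparisons of GV with GV3h from 0 to at most 45 in controls, 255 in cKO and 28 for the interaction. The cause of these differences was not tested. No paired analysis was possible because no female or oocyte has libraries in both groups of a comparison. The RiboMinus values rest on 7 females, and those of MII controls on 1, and C1d on few reads.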
